A study of Mus musculus with 4 samples.

Results

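The genes described here are 10 genes of transforming growth factor beta (TGF-beta) signaling: the ligands *Tgfb1*, *Tgfb2* and *Tgfb3*, the receptors *Tgfbr1*, *Tgfbr2* and *Tgfbr3*, the latent complex partner *Ltbp1*, the signal transducer *Smad3* and the feedback inhibitors *Smad7* and *Skil*. They were chosen by name for their place in the pathway, with earlier results of these data known. All 10 of 10 were found among the 20197 genes of the table. RNA had been sequenced from wild-type 4T1 cells, which are mouse breast carcinoma cells that seed lung metastases and stand in for triple negative breast cancer. Cultured cells were stained with MitoSpy Red at 20 nM, a red dye taken up by mitochondria the more, the higher their membrane potential (mitochondrial membrane potential, MMP), and cells of the top 5% (high MMP) and of the bottom 5% (low MMP) of the stain were sorted. By their labels, both groups share genotype, stain and culture and differ in the sorting gate, with 2 libraries per group and 100000 cells per library. The comparison asks how gene expression differs between tumor cells of high and low mitochondrial activity, here for a signaling pathway known to drive epithelial-to-mesenchymal transition (EMT).

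TGF-beta ligands are secreted as latent dimers. They are held in the matrix by latent TGF-beta binding proteins such as the product of *Ltbp1* until integrins, proteases or thrombospondin free them. The active ligand binds the type II receptor (*Tgfbr2*), which recruits and phosphorylates the type I receptor kinase (*Tgfbr1*), while betaglycan (*Tgfbr3*) presents ligand, above all TGF-beta 2. The type I receptor phosphorylates SMAD2 and SMAD3, which enter the nucleus with SMAD4 and switch target genes on or off. Among these targets are the pathway's own brakes: SMAD7 blocks and removes the type I receptor, and SnoN, the product of *Skil*, represses SMAD complexes on DNA. In mammary tumors the pathway is known to restrain early growth and to favor EMT and spread later.

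Values are the deposited normalized reads, in which each library is scaled to 20000000 reads, and differences are high minus low MMP on the log2(normalized reads + 1) scale. The libraries held between 22591970 and 26395015 reads. Library high MMP 1 stood apart from the others, with 1.27% of its reads from protein-coding genes of the mitochondrial genome against 2.02% to 2.24% elsewhere. Across the 12902 genes that averaged 10 or more normalized reads, the SD of the log2 difference was 0.398 between the 2 high MMP libraries and 0.288 between the 2 low MMP libraries. Between groups it was 0.430 and 0.363 for high MMP 1 against low MMP 1 and 2, and 0.311 and 0.374 for high MMP 2 against them. The high MMP libraries thus differed from each other more than most pairs of a high and a low MMP library did. The epithelial markers *Epcam*, *Cdh1*, *Krt7*, *Krt8*, *Krt14* and *Krt18* summed to between 47592 and 65174 normalized reads per library. Of the 5 leukocyte markers 2 were in the table, with 0 to 2 reads per library for the defining one, *Ptprc*, and 79 and 166 reads in high and 171 and 103 in low MMP cells for the macrophage marker *Cd68*. Of the endothelial markers, 2 of 4 were in the table and summed to 1.74 to 6.20 normalized reads. The table held 2 of 5 fibroblast markers, which summed to 325 and 371 in high MMP cells and 547 and 598 in low MMP cells, nearly all of it from *Pdgfra*. A list of 10 genes of the G2/M phase of the cell cycle moved with the groups, summing to 89269 and 94982 normalized reads in high MMP cells and 52849 and 55723 in low MMP cells. Its part in the results below was not tested. In bulk RNA, fewer cells that express a gene and less RNA per cell cannot be told apart. The study's legend counts replicates of this comparison as independent experiments or tumors, and the labels do not say what each library came from.

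All 10 genes were expressed in both groups, and the pathway was present from ligand to feedback. In the high MMP libraries *Smad7*, *Tgfbr2*, *Tgfbr3*, *Skil* and *Tgfb2* lay above their values in both low MMP libraries, whereas *Tgfb3*, *Tgfb1* and *Smad3* lay below them. *Tgfbr1* and *Ltbp1* overlapped between the groups. The differences were small, from 1.31-fold more *Tgfb3* in low MMP cells to 1.41-fold more *Smad7* in high MMP cells, and 0 of 10 passed an adjusted p of 0.05 in the limma test (adjusted p 0.472 to 0.970), against 0.0% of all genes. At an unadjusted p under 0.05 there were 3 of the 10, *Tgfbr2* and *Smad7* higher and *Tgfb3* lower in high MMP cells, where 9.96% of all genes reached this level (3.95% higher and 6.01% lower). When a library was left out, the difference ranged from 0.28 to 0.69 for *Smad7*, from 0.26 to 0.35 for *Tgfbr2* and from -0.40 to -0.38 for *Tgfb3*. The count of 3 is not given for such fits, since 1 library left in a group has no spread of its own.

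**Figure D1:**
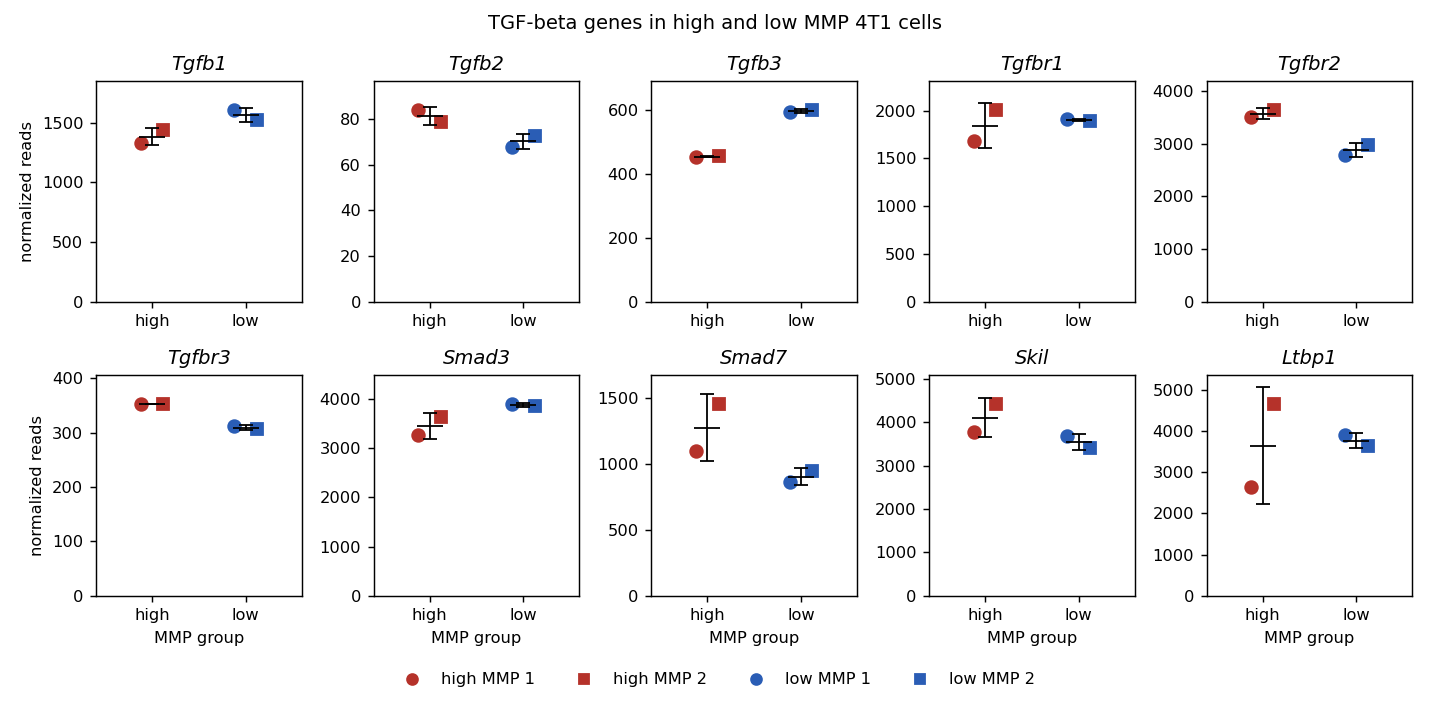
Normalized reads (linear axes from 0) of the 10 TGF-beta genes in each library; circles are replicate 1, squares replicate 2, horizontal lines the group means and bars the SD (n = 2). *Tgfb3* shows the tightest separation (452 and 455 in high against 593 and 600.2 in low MMP cells), and *Ltbp1* the widest gap between replicates (2641 and 4667 in high MMP cells).

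Of the ligand genes, *Tgfb1* and *Tgfb3* were the more abundant and both had their lower values in high MMP cells, while *Tgfb2* was scarce and had its lower values in low MMP cells. *Tgfb3* (ENSMUSG00000021253, GRCm38 chr12:86056745-86079041, minus strand) encodes the isoform best known from palate and lung development. It had 452 and 455 normalized reads in high MMP cells and 593 and 600.2 in low MMP cells. The replicates nearly coincided in either group, with gaps of 0.01 and 0.02 on the log2 scale. These are 0.11 and 0.23 times their counting error, closer than counting error alone would usually leave them. Each of the 4 comparisons of a high with a low MMP library gave a difference between -0.41 and -0.38. Group means were 454 ± 2.03 and 597 ± 5.24 (SD, n = 2 each), with a difference between them of -0.39 (SE 0.08, 95% interval -0.61 to -0.18, limma adjusted p = 0.472). Its unadjusted p was the lowest of the 10 genes. Without library high MMP 1 the *Tgfb3* difference was -0.39.

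*Tgfb1* (ENSMUSG00000002603, chr7:25687002-25705077, plus strand), the isoform most widely made by tumors, had 1331 and 1434 normalized reads in high and 1608 and 1525 in low MMP cells. Both high MMP values lay below both low MMP values, but the nearest pair was only 0.09 apart on the log2 scale. The difference was -0.18 (SE 0.08, 95% interval -0.41 to 0.05, limma adjusted p = 0.613), and it was -0.13 without library high MMP 1. *Tgfb2* (ENSMUSG00000039239, chr1:186622792-186705989, minus strand), the ligand that needs betaglycan most, had 84.1 and 78.7 normalized reads in high and 68.0 and 72.6 in low MMP cells. These rest on 111 and 94 reads against 78 and 82, whose 95% Poisson intervals (91.3 to 134 and 76.0 to 115 reads, against 61.7 to 97.3 and 65.2 to 102) overlap. That overlap is no test of the groups, since each Poisson interval covers 1 library and is not scaled for depth. The *Tgfb2* difference was 0.21 (SE 0.16, 95% interval -0.22 to 0.64, limma adjusted p = 0.774), and its interval includes 0.

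Regulatory sequence is shown for both ends of the ligand range and for the receptor whose groups lay furthest apart, since several genes of the pathway are known targets of SMAD complexes. Each sequence runs from 250 bases before to 50 bases after a RefSeq transcription start on GRCm38.p6, 5′ to 3′ on the strand of the gene, with every CAGAC or its reverse complement GTCTG, the core SMAD-binding element, in capitals. The windows are chr7:25686752-25687051 (plus strand) for *Tgfb1*, chr1:186705940-186706239 (minus strand) for *Tgfb2* and chr9:116175314-116175613 (minus strand) for *Tgfbr2*.
Tgfb1: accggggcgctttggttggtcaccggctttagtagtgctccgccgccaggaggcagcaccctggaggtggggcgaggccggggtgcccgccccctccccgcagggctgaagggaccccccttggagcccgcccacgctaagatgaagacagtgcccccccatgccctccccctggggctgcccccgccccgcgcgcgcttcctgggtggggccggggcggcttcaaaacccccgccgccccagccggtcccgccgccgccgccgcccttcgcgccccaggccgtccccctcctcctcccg
Tgfb2: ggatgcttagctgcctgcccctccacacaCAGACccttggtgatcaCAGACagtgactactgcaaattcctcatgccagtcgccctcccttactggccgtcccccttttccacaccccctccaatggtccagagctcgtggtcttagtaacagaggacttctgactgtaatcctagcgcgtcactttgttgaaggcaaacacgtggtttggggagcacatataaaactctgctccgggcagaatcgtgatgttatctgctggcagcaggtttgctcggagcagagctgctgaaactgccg
Tgfbr2: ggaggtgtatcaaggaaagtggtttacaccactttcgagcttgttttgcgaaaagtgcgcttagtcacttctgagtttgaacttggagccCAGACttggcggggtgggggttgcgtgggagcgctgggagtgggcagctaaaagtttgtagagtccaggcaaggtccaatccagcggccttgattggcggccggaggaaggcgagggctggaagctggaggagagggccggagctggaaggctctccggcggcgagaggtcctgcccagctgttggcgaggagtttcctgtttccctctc

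The *Tgfb1* window held 0 matches to CAGAC on either strand and was 77.0% G or C, with 2 matches to GGCGC or its reverse complement GCGCC, a GC-rich element that SMADs also bind. The *Tgfb2* window held 2 matches to CAGAC, 0 to GGCGC and 54.3% G or C, and the *Tgfbr2* window 1, 0 and 59.0%. RefSeq windows of 6 of the 10 genes were searched, 8 windows in all, since *Tgfbr1* and *Ltbp1* have 2 annotated starts each. Windows on chr18, where *Smad7* lies, were left out beforehand, so these counts say nothing about the *Smad7* promoter. Among all 32851 mouse windows of 300 bases, 49.6% held CAGAC on either strand, 36.9% held GGCGC, and the median G or C content was 52.7%. The palindrome GTCTAGAC is made of GTCT and its reverse complement AGAC end to end and contains neither CAGAC nor GTCTG. It was in 0.213% of all windows and in 0 of the 8, which do not include *Smad7*. A match to CAGAC is therefore common, and describes the letters of the window rather than a bound site.

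Of the receptors, *Tgfbr2* was the most abundant and had the clearest separation, *Tgfbr3* differed by less, and *Tgfbr1* overlapped between the groups. *Tgfbr2* (ENSMUSG00000032440, chr9:116084293-116175360, minus strand), the ligand-binding kinase that starts the signal, had 3503 and 3644 normalized reads in high and 2795 and 2983 in low MMP cells. Either high MMP library exceeded either low MMP library by 0.23 to 0.38 on the log2 scale, more than the gaps of 0.06 and 0.09 between replicates. Group means of 3574 ± 100.02 and 2889 ± 133 (SD, n = 2 each) were 1.24-fold apart, a difference of 0.31 (SE 0.08, 95% interval 0.08 to 0.53, limma adjusted p = 0.472). The *Tgfbr2* value was 0.34 without library high MMP 1.

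*Tgfbr3* (ENSMUSG00000029287, chr5:107106570-107289629, minus strand) encodes betaglycan and had 352 and 353 normalized reads in high and 313 and 306 in low MMP cells. All 4 values rest on 346 to 465 reads, the replicates agreed within counting error, and the groups did not overlap. The *Tgfbr3* difference was 0.19 (SE 0.09, 95% interval -0.06 to 0.43, limma adjusted p = 0.621). *Tgfbr1* (ENSMUSG00000007613, chr4:47353222-47414931, plus strand), the type I kinase that phosphorylates SMAD3, had 1678 and 2008 normalized reads in high and 1911 and 1892 in low MMP cells. Library high MMP 1 was the lowest of the 4 and library high MMP 2 the highest, with the low MMP libraries close together between them. Its difference of -0.05 (SE 0.11, 95% interval -0.36 to 0.26, limma adjusted p = 0.955) turned to 0.08 without library high MMP 1.

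*Smad3* (ENSMUSG00000032402, chr9:63646767-63757994, minus strand), the transducer of the pathway that binds DNA, had 3264 and 3647 normalized reads in high and 3904 and 3853 in low MMP cells. The low MMP libraries agreed closely and both high MMP libraries lay below them. The difference was -0.17 (SE 0.09, 95% interval -0.42 to 0.08, limma adjusted p = 0.685) and shrank to -0.09 without library high MMP 1.

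The feedback inhibitors, by contrast with *Smad3*, had their higher values in high MMP cells. *Smad7* (ENSMUSG00000025880, chr18:75367529-75395935, plus strand), an inhibitory SMAD that TGF-beta itself induces, had 1097 and 1458 normalized reads in high and 861 and 949.9 in low MMP cells. Its difference was the largest of the 10 genes, yet the high MMP replicates were also 0.41 apart on the log2 scale, 7.99 times their counting error. The group means were 1277 ± 255 and 906 ± 62.6 (SD, n = 2 each), a 1.41-fold ratio and a difference of 0.48 (SE 0.17, 95% interval 0.03 to 0.93, limma adjusted p = 0.472). *Smad7* differed by 0.69 without library high MMP 1 and by 0.28 without library high MMP 2, so its size rests on the second of these. *Skil* (ENSMUSG00000027660, chr3:31095058-31122577, plus strand) had 3781 and 4422 normalized reads in high and 3679.7 and 3407 in low MMP cells. Library high MMP 1 was barely above low MMP 1, by 0.04 on the log2 scale, so its groups were apart by little. The *Skil* difference was 0.21 (SE 0.11, 95% interval -0.10 to 0.52, limma adjusted p = 0.685), and 0.09 without library high MMP 2.

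*Ltbp1* (ENSMUSG00000001870, chr17:75005568-75392512, plus strand), which tethers latent ligand to the matrix, varied more between the high MMP libraries than between the groups. It had 2641 and 4667 normalized reads in high and 3901 and 3646 in low MMP cells. The high MMP libraries were thus the lowest and the highest of the 4, 0.82 apart on the log2 scale, which is 26.4 times their counting error. The difference of -0.10 (SE 0.29, 95% interval -0.90 to 0.70, limma adjusted p = 0.970) covers changes of either sign, with 0.31 when library high MMP 1 was left out and -0.51 when library high MMP 2 was left out. The annotated *Ltbp1* starts lie 173252 bases apart and give a long and a short protein, and the gene-level values sum both.

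**Figure D2:**
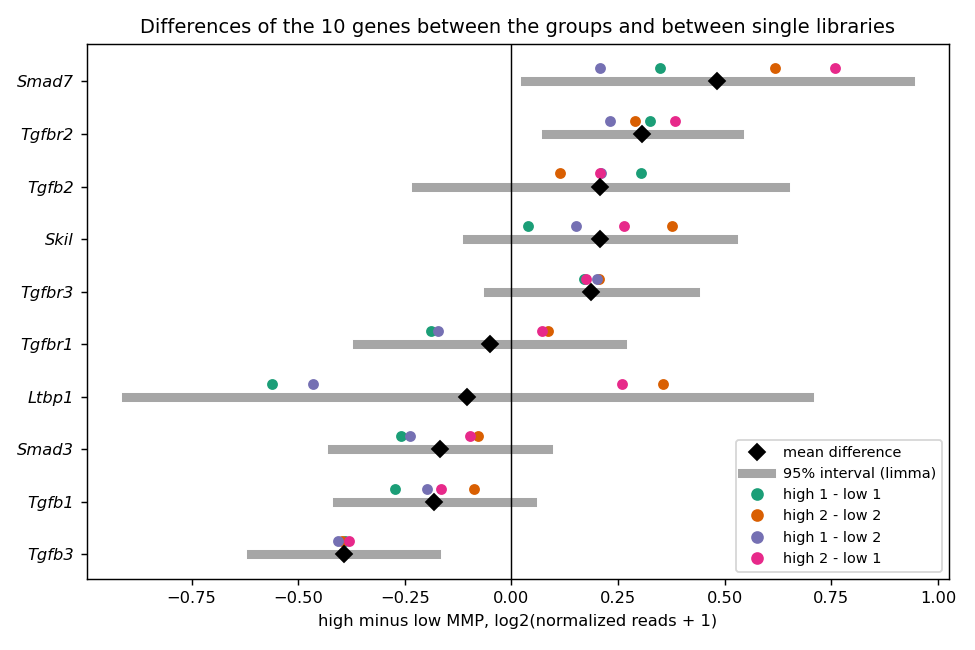
Differences of the 10 genes, high minus low MMP on the log2(normalized reads + 1) scale, ordered by size; diamonds are the differences of the group means, grey bars their 95% limma intervals, and colored points the 4 differences between single libraries. The intervals of *Smad7*, *Tgfbr2* and *Tgfb3* leave out 0, while the single-library differences of *Ltbp1* run from -0.56 to 0.36.

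The 2 high MMP libraries lay on one side of the 2 low MMP libraries for 8 of the 10 genes, 5 above and 3 below. Over all genes, 13.5% lay above and 24.5% below in this way, and over genes averaging 10 or more normalized reads, which all 10 genes reach, 14.3% and 23.7%. The counts of 5, 3 and 2 were the same after median-of-ratios, TMM and quantile rescaling. The median absolute difference of the 10 genes was 0.20, against 0.13 over genes averaging 10 or more, and their median signed difference was 0.07, against -0.03. Both *Tgfbr1* and *Ltbp1* had library high MMP 1 lowest and high MMP 2 highest, an order found in 12.4% of genes averaging 10 or more.

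Because RNA-sequencing yields more reads from longer transcripts, levels were compared between genes per kilobase of merged exon. *Smad3* was the most abundant of the 10, with 589 to 704 normalized reads per kb across the libraries and a mean of 662 (percentile 92.1 of the 19993 genes with a length). It stood clear of *Tgfbr2* (mean 395) and *Skil* (394), whose values overlapped each other and those of *Ltbp1* (347). *Ltbp1*, *Tgfb1* (292), *Tgfbr1* (286) and *Smad7* (241) each overlapped the next, so their order is not resolved. *Tgfb3* (155), *Tgfbr3* (50.6) and *Tgfb2* (13.1) followed, each with no overlap with the gene before, down to percentile 41.3. The upper part of this order depends on the assumed transcript. Per kb of the longest transcript, *Smad3* again had the highest mean (720.4) but overlapped *Skil* (569) and *Ltbp1* (557), and *Tgfb1* (573) lay above *Tgfbr2* (399) in every library. The lower part, from *Tgfbr1* (325) over *Smad7* (255), *Tgfb3* (155) and *Tgfbr3* (54.4) to *Tgfb2* (14.8), came in the same order with either length.

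The make-up of the ligand and receptor pools per kb was close in the 2 groups, although most shares were on one side. *Tgfb1* made up 64.0% and 65.8% of the ligand sum in high MMP and 63.0% and 61.4% in low MMP cells. *Tgfb3* contributed 32.4% and 31.1% against 34.6% and 36.0%, and *Tgfb2* 3.52% and 3.14% against 2.32% and 2.55%. The summed ligand level was 412 and 433 normalized reads per kb in high and 506 and 492 in low MMP cells, so ligand RNA was lower in both high MMP libraries. Receptor RNA was higher in both, at 738 and 806 against 682 and 701. *Tgfbr2* supplied 57.9% and 55.2% of the receptor sum in high and 50.1% and 52.0% in low MMP cells. With the length of the longest transcript in place of merged exons, the *Tgfb1* share was 78.2% and 76.2% (group means of high and low) and the *Tgfb3* share 19.5% and 22.1%, so the shares depend on the assumed transcript and their direction does not.

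Some ratios of genes that act on each other were formed within each library after the values had been seen, and carry no test. The ratio of *Smad7* to *Smad3* per kb was 0.412 and 0.490 in high MMP cells and 0.270 and 0.302 in low MMP cells. *Tgfbr2* over *Tgfbr1* was 1.67 and 1.45 against 1.17 and 1.26, and *Tgfb1* over *Tgfb3* 1.97 and 2.11 against 1.82 and 1.71. In these ratios the high MMP libraries were both above the low MMP libraries. *Skil* over *Smad7* ran the other way, with 1.61 and 1.41 in high and 1.99 and 1.67 in low MMP cells, where the nearest values of the groups were closer than the replicates of either group.

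**Figure D3:**
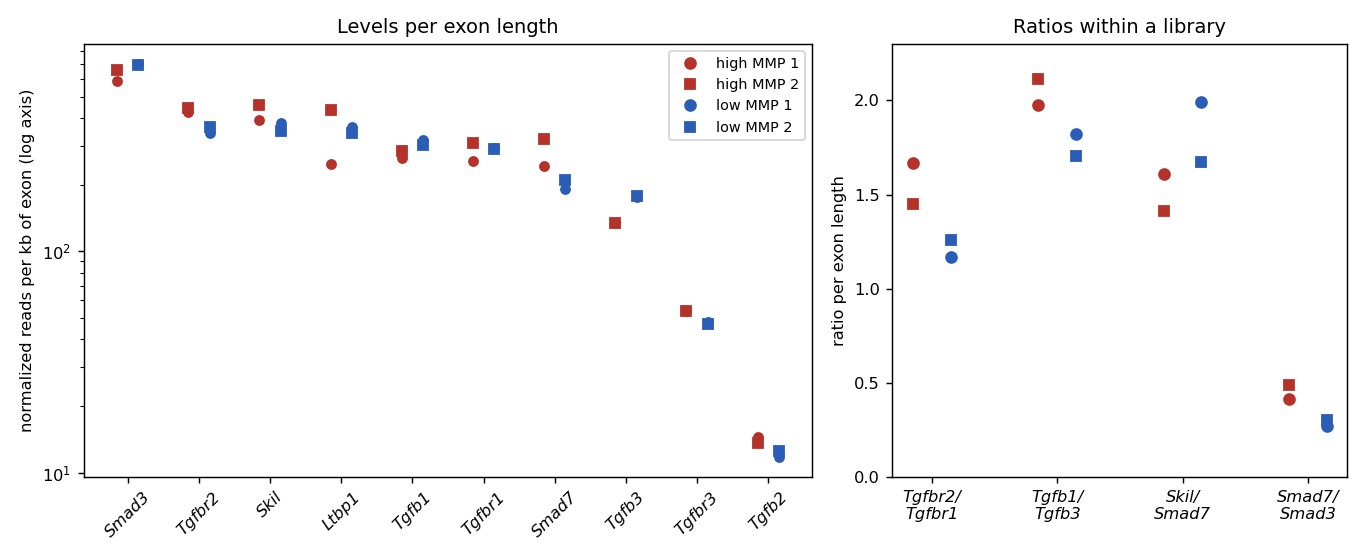
Left, levels of the 10 genes in normalized reads per kb of merged exon (log axis), ordered by mean; right, ratios of paired genes within each library (linear axis from 0), with red for high and blue for low MMP and circles and squares for replicates 1 and 2. Levels span from 662 for *Smad3* to 13.1 for *Tgfb2*, and the ratio of *Smad7* to *Smad3* is at least 0.412 in high and at most 0.302 in low MMP cells.

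The wider pathway was described with 8 lists of 118 genes outside the 10, of which 96 were in the table and 79 had a mean of at least 10 normalized reads. The lists were chosen with earlier results of these data known, so their counts describe these data and are no independent test. Of the 96, 0 passed the adjusted threshold in limma, and 10 were higher and 4 lower in high MMP cells at an unadjusted p under 0.05, together 14.6%, where the level over all genes was 9.96%. Among these are *Bmp6*, *Bmp8a*, *Amh* and *Amhr2*, which rest on 0 to 14 reads per library. In the limma fit restricted to genes averaging 10 or more, 11 of the 79 were higher and 2 lower. There 1059 of 12902 genes reached an unadjusted p under 0.05. On recovered reads, DESeq2 called 4 of the 96 (*Itgb6*, *Ccn1*, *Id1* and *Id2*) and edgeR with the replicate block 3 (*Itgb6*, *Id1* and *Id2*), while edgeR with no block called 0. Of all 20197 genes these fits called 118, 106 and 0. Of the 79, the high MMP libraries lay above both low MMP libraries in 20 (25.3%) and below in 3 (3.80%), against 14.3% and 23.7% of all genes averaging 10 or more, and the median difference was 0.05. This median was 0.15 without library high MMP 1 and -0.03 without high MMP 2. It was 0.08 without low MMP 1 and 0.01 without low MMP 2. The counts that follow are at an unadjusted limma p under 0.05, which 3.95% of all genes reached as higher and 6.01% as lower.

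Among the other ligands of the superfamily, 1 of 8 measured genes was higher and 2 lower, and 4 had a mean of at least 10. The higher gene, *Bmp6*, and the lower genes, *Bmp8a* and *Amh*, all averaged under 10. *Bmp6* had 1 read in each high MMP library and 0 in each low MMP library, and *Bmp8a* the reverse, so these counts rest on very few reads. The most abundant was *Inhba*, the activin A subunit, with 3223 and 2599 normalized reads in high and 1727 and 2474 in low MMP cells (difference 0.48, SE 0.22, limma adjusted p = 0.602). All 11 other receptors were measured, with 0 higher and 2 lower, of which *Amhr2* rests on 1 to 6 reads per library. *Acvr2b*, a type II receptor for activins, had 99.3 and 157 normalized reads in high and 207 and 230.2 in low MMP cells (difference -0.80, SE 0.26, limma adjusted p = 0.472). The 6 other SMADs gave 0 in either direction. *Smad4*, the shared partner of all receptor-activated SMADs, differed by -0.08 with 2252 and 2505 normalized reads in high and 2603 and 2405 in low MMP cells.

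Of the 18 measured genes for storage and activation of latent ligand, 1 was higher and 0 lower. This was *Itgb6*, the beta subunit of an integrin that frees TGF-beta from its latent complex, at 179 and 166 normalized reads in high and 66.3 and 85.9 in low MMP cells (difference 1.18, SE 0.19, limma adjusted p = 0.472, called by DESeq2 on recovered reads). Many of the others had the order of *Ltbp1*: in 9 of the list's 16 genes with a mean of at least 10, library high MMP 1 was the lowest and high MMP 2 the highest, against the 12.4% of all such genes given above. The median of the list was 0.19 without library high MMP 1 and -0.38 without high MMP 2. The 9 were *Ltbp2*, *Mmp9*, *Mmp14*, *Bmp1*, *Furin*, *Itgav*, *Itgb1*, *Itgb3* and *Itgb5*, and were picked out after their values were seen. *Ltbp2*, a relative of *Ltbp1*, had 2720.2 and 4919 normalized reads in high and 3755 and 3310.0 in low MMP cells. *Mmp9*, a matrix protease that can release TGF-beta, had 7548 and 18121 against 13651 and 8565.

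Of the 16 measured inhibitors and antagonists, 1 was higher and 0 lower. This was *Pmepa1*, a target of TGF-beta that sequesters SMADs, with 4174 and 5241 normalized reads in high and 3357 and 3296 in low MMP cells (difference 0.49, SE 0.14, limma adjusted p = 0.472). In addition to *Pmepa1*, the groups were apart in the same direction for *Fstl3*, *Wwp1* and *Tgif1*, so 4 of 14 inhibitors with a mean of at least 10 lay above and 0 below, where 14.3% and 23.7% of all such genes did. The 9 measured cofactors gave 0 in either direction, and the most abundant, the deubiquitinase *Usp4* that stabilizes the type I receptor, differed by 0.12.

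The list of textbook SMAD3 targets had 24 measured genes, 5 higher and 0 lower at an unadjusted p under 0.05. Among these were *Il11*, *Ccn1*, *Ldlrad4* and *Nuak1*, of which all but *Il11* were named after their values were seen. *Il11*, a cytokine linked to bone metastasis, had 249 and 238 normalized reads in high and 126 and 191 in low MMP cells (difference 0.64, SE 0.23, limma adjusted p = 0.493). Of 21 targets with a mean of at least 10, the high MMP libraries lay above both low MMP libraries in 10 and below them in 0, against 14.3% and 23.7% of all such genes, and the median difference was 0.23. The groups overlapped in the other 11. Among these, *Col1a1*, named after its values were seen, had 8 and 36 reads in high and 39 and 29 in low MMP cells (difference -1.04, SE 0.79). The count of 5 was 1 with no variance trend, 2 with the replicate block, 3 after quantile normalization and 9 in DESeq2. Over all genes, 2011 reached this level in either direction in the main fit, and 1980, 1055, 2184 and 660 in these fits. When a library was left out, the median of the list stayed between 0.15 and 0.30. Several of these genes, *Ccn1* among them, also respond to YAP, AP-1 and serum factors, and the list is not specific to TGF-beta. It was also chosen with earlier results of these data known, so its shares are descriptive. Of the 4 measured BMP targets, *Id1* and *Id2* were higher. *Id1*, an inhibitor of differentiation factors, had 1295 and 911 normalized reads in high and 472 and 546 in low MMP cells (difference 1.10, SE 0.20, limma adjusted p = 0.472, called by DESeq2 on recovered reads).

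**Figure D4:**
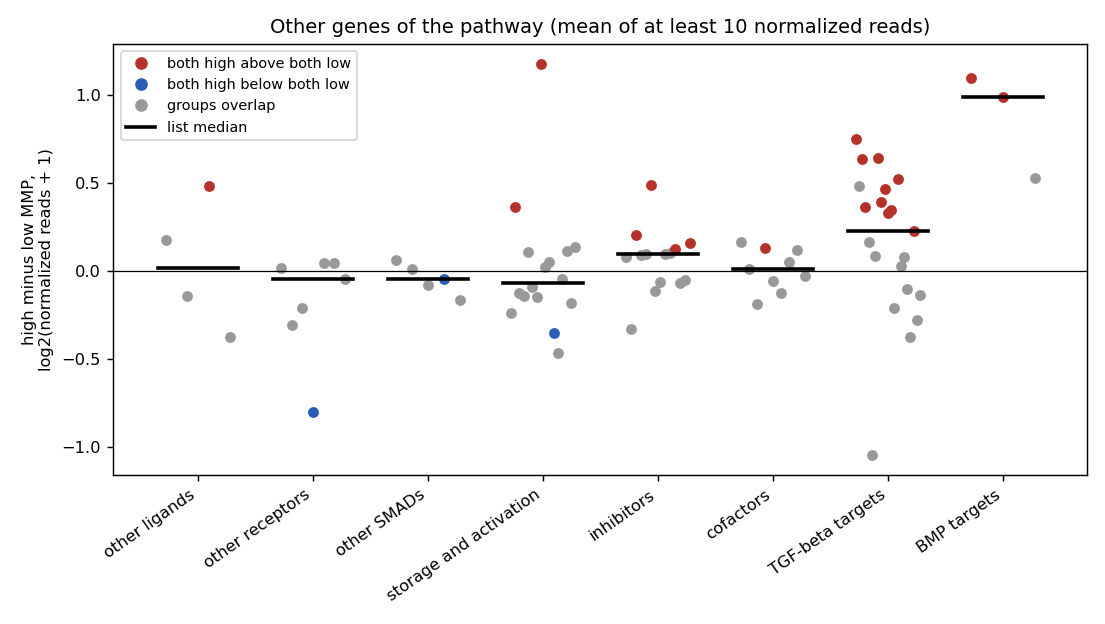
Differences (high minus low MMP, log2(normalized reads + 1) scale) of the pathway genes outside the 10 with a mean of at least 10 normalized reads, by list; each point is a gene, red where both high MMP libraries lay above both low, blue where below, grey where the groups overlapped, and black lines are list medians. The targets have 10 red and 0 blue of 21 points with a median of 0.23, and the receptors 0 red and 1 blue of 7.

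Some of the 10 genes share exon bases with other annotated genes, and whether counting used strand is not stated. *Tgfb2* shares 124 bases with the antisense gene *Gm29491* and *Tgfb3* 163 and 257 bases with *Gm37804* and *Gm48008*, all on the opposite strand. *Tgfbr3* shares 297 bases with *Gm43422* on its own strand. *Gm48008* had a mean of 0.399 and *Gm43422* of 1.06 normalized reads, small against 525 for *Tgfb3* and 331 for *Tgfbr3*.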

How the data were processed

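Gene-level RNA-sequencing values of MMP-sorted 4T1 cells were used, with 2 libraries per group named by their titles. The authors used STAR to align stranded mRNA reads to the GRCm38/mm10 transcriptome, summarized them by gene and normalized to library size; HTSeq is also named in the submitters' processing notes, and versions and annotation release are not given in the sources used here. The deposited values are a normalized signal per gene, and each library sums to 20000000 up to rounding. Genes above 0 in fewer than 2 libraries numbered 0. Dividing by the step of 1 read gave whole reads (tolerance 0.05) for 100% of values. For this comparison the study ranked genes for gene set enrichment and states no test per gene. It reported the Hallmark EMT gene set as upregulated in high MMP cells. Its false discovery rate cut-off for this comparison was looser than for its comparisons with more replicates.

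Values were tested as log2(value + 1), which understates the change of low genes, with limma 3.58.1 (eBayes with a trend, two-sided) in R 4.3.3, group as the only factor and Benjamini-Hochberg adjustment over all 20197 genes at 0.05. An exact permutation test of 2 against 2 libraries cannot go below p = 0.333 and was not used. Alternatives were other pseudocounts, a filter on the mean, rescalings, edgeR 4.0.16 and DESeq2 1.42.0 on recovered reads, blocks and leaving out each library. The fits were also run on simulated reads whose changes were far larger than those of the 10 genes. That run does not show how the fits perform at the sizes reported here. Positions and exon lengths came from GENCODE M21 (19993 genes matched) and promoters from RefSeq. Poisson intervals (95%) cover counting error only. The genes and lists were chosen with earlier results of these data known. From each list, the genes named by rule were those with the largest difference in each direction at an unadjusted p under 0.05 and a mean of at least 10, or otherwise the gene with the highest mean. Any further gene of the lists, such as *Fstl3*, *Wwp1*, *Tgif1* and *Id2*, was named after its values were seen. A gene of the lists that is not reported here by name stays in their counts.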

Additional observations from a re-analysis of the deposited data

How the results depend on the processing

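The number of genes called was 0 in limma under each scaling, pseudocount, filter and variance model tried, with 1059 to 2184 genes at an unadjusted p under 0.05, and 0 in edgeR with no block (1423 unadjusted). It was 118 in DESeq2 (660 unadjusted). The titles number the libraries 1 and 2 in each group without saying what the number marks, and same-numbered libraries did not deviate together (r = -0.421 over 12902 genes). With this number as a replicate block, limma called 0 genes (1055 unadjusted) and edgeR 106. Numbers crossed between groups, a pairing chosen after seeing the data, gave 0 calls in limma and 733 in edgeR, 1 of them among the 10 TGF-beta genes. In the other fits 0 of the 10 were called. At an unadjusted p under 0.05 the count of 3 of the 10 became 5 after quantile normalization, 1 with no variance trend and 1 in edgeR with the replicate block. Of all genes, 2184, 1980 and 918 reached this level in these fits.

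None of 130 recomputed differences that kept all libraries changed sign. Of 40 that left out a library 2 did, both without high MMP 1: *Tgfbr1*, which ranged from -0.18 to 0.078, and *Ltbp1*, from -0.51 to 0.31. Of the pathway genes named beside them, *Smad4* changed sign without high MMP 1 (-0.15 to 0.00138), and *Itgb6* and *Id1* were called in DESeq2 and in edgeR with the replicate block. In limma with the replicate block the adjusted p of *Smad7* and *Tgfb3* was 0.798 and that of *Tgfbr2* 0.826. With a single library left in a group, its spread is assumed to be that of the other group. Rescaling moved the median of all genes by at most 0.04. With 2 libraries per group, the limma intervals of all but *Smad7*, *Tgfbr2* and *Tgfb3* include 0, and *Tgfb2*, on 78 to 111 reads per library, is limited by depth as well.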

Other observations

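The superfamily also held a scarce ligand and receptor pair that act on each other. *Amh*, anti-Müllerian hormone, had 5 and 3 reads in high MMP cells against 13 and 14 in low MMP cells, and *Amhr2*, its dedicated type II receptor, had 1 and 1 against 6 and 5. Both had their lower counts in both high MMP libraries, with a limma adjusted p of 0.472 for either. Over all genes, 24.5% lay lower in both high MMP libraries in this way. They were picked out after their values were seen, and at so few reads a fold is not given.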
